A study of Mus musculus with 6 samples.

Results

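The 6 genes Tespa1, Plac8, Cst7, Nkg7, Cd69 and Clec12a, of 13278 genes in the expression tables, were followed across 6 libraries of single mouse haematopoietic stem and progenitor cells. They were chosen by their measured levels, as genes that differed between libraries with and without CD48+ cells; their levels there describe the choice and were not tested. Of the 6, only Cst7, Nkg7 and Clec12a stood higher in all 4 libraries with a CD48+ gate than in both libraries without one, an order that 6.07% of the 12003 genes with recovered counts had. Tespa1, Plac8 and Cd69 did not divide the libraries that way, so over all 6 libraries these 3 did not track the CD48 gate. For Tespa1 and Cd69 this rests on the library named CD48-negative HSC2, which was deposited apart from most of the others. Against the library of their own deposit without a CD48+ gate, their pooled levels were higher, though not clearly so for Tespa1 in HPC1 or Cd69 in HSC1. Plac8 in HPC1 was lower even there. The part of the deposit was not tested.

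All cells came from C57BL/6 mice. The MPP2-containing library (80 cells) mixed MPP2, CD48+ HSC1, CD48+ HPC1 and CD201-CD48- HPC1 from bone marrow. HSC1 (84 cells) mixed CD201+CD48- HSC1 with CD48+ HSC1, and HPC1 (82 cells) mixed CD201+CD48- HPC1 with CD48+ HPC1; both are labelled spleen. HSC2/MPP4 (89 cells) held CD48+ HSC2 and MPP4 from bone marrow. On the side without a CD48+ gate, the double-negative library (76 cells) held CD201-CD48- HSC1 and HPC1, and CD48-negative HSC2 (86 cells) was sorted from HSC2 without CD48, whether CD201+ or CD201-; both are from bone marrow. The mice were 8 to 10 weeks old, or 8 weeks for the HSC2 libraries, which are also labelled total RNA where the other 4 are labelled polyA RNA. The names HSC1, HSC2, HPC1, MPP2 and MPP4 are those of sorted stem cell, progenitor and multipotent progenitor gates. The labels trace a cell to its library but not to its gate. In HSC1 and HPC1, Cd48 and Nkg7 were mostly low in the cells listed first and higher in many listed later. Whether that order follows the gates was not tested. Each group is 1 library: differences are without replicates throughout and carry no p-value.

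CD48 is a surface protein of the SLAM family, and its absence is a classical mark of the most primitive blood stem cells, whereas CD201 marks stem cells by its presence. The 6 genes are best known from differentiated leukocytes. Nkg7 and Cst7 belong to the granules of cytotoxic lymphocytes, where Nkg7 is a membrane protein needed for granule release and Cst7 encodes cystatin F, an inhibitor of the cathepsins that activate granule proteases. Clec12a is a lectin-like inhibitory receptor of granulocytes, monocytes and dendritic cells. Cd69 is a lectin-like receptor that appears early after activation and holds lymphocytes in tissue by drawing the egress receptor S1PR1 from the surface. Tespa1 couples the T cell receptor to calcium release in developing T cells, and Plac8 encodes a small cysteine-rich protein found in many myeloid and lymphoid cells.

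All 6 are protein-coding genes that overlap no other annotated gene (GENCODE M21 annotation of GRCm38, the assembly named mm10 in the submitters' processing notes). Tespa1 lies on chromosome 10 from 130322870 to 130364111 on the plus strand, and Plac8 on chromosome 5 from 100553725 to 100572245 on the minus strand. Cst7 spans 150570415 to 150578944 of chromosome 2 and Nkg7 43437073 to 43438249 of chromosome 7, both on the plus strand. Cd69 and Clec12a are neighbours on chromosome 6, Cd69 from 129267325 to 129275436 on the minus strand and Clec12a from 129342691 to 129365303 on the plus strand.

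Upstream sequence is shown for Cst7 and Nkg7, which divided the libraries in the same way, and for Plac8, which did not. Each line gives the 185 bases from 250 to 66 bases before the RefSeq transcript start (GRCm38.p6), 5′ to 3′ on the gene's strand, and capitals mark TGTGGT or its reverse complement ACCACA, the core of the RUNX motif. The regions are chr2:150570165-150570349 (plus strand) for Cst7, chr7:43436888-43437072 (plus strand) for Nkg7 and chr5:100572271-100572455 (minus strand) for Plac8.
Cst7: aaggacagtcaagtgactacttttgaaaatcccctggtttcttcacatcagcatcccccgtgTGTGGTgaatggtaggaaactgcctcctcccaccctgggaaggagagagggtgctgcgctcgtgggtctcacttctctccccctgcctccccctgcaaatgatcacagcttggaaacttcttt
Nkg7: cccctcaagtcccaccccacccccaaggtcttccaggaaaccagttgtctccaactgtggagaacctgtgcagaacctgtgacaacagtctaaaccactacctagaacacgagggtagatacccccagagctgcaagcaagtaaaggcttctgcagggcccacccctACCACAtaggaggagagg
Plac8: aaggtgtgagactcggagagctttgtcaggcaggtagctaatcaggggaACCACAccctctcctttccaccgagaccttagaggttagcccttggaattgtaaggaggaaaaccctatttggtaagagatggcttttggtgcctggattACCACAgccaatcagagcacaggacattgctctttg
RefSeq entries were matched for 4 of the 6 genes, and the Clec12a window lies inside an annotated exon and is not printed. The RUNX core was present once in Cst7, 188 bases before the start, once in Nkg7 at 83 bases, and in Plac8 at 201 and 101 bases. The same letters occur on either strand in 10.7% of 32851 windows of this length over all RefSeq genes. Other motifs were searched on both strands and had no match in these 3 windows. The PU.1 core, spelled AGGAAG, occurs in 22.2% of all windows. The C/EBP palindrome, spelled TTGCGCAA, occurs in 0.113% of them, and the GATA core, spelled AGATAA, in 7.9%. The motifs were chosen with the sequences in view, and a match describes letters only.

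Levels are counts summed over all cells of the library and scaled to 1000000 (CPM), with exact Poisson 95% intervals that cover counting error only and leave out the spread between cells. A pooled level does not separate fewer cells with a transcript from less transcript per cell. Library totals ran from 2778858 counts (CD48-negative HSC2) to 15019501 (MPP2-containing) and median counts per cell from 23540 to 145496, and no cell had the same counts as another. Cd48 was at 122, 81.4, 33.9 and 173 CPM in MPP2-containing, HSC1, HPC1 and HSC2/MPP4, against 1.62 in double-negative cells and 9.36 in CD48-negative HSC2. Procr, the gene of CD201, was at 133, 71.6 and 115 CPM in HSC1, HPC1 and CD48-negative HSC2, which contain a CD201+ gate, and between 16.4 and 23.9 in the other 3. Kit and Cd34, genes of surface proteins of stem and progenitor cells, were at 116 to 213 and 83.4 to 587 CPM over the 6 libraries.

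**Figure D1:**
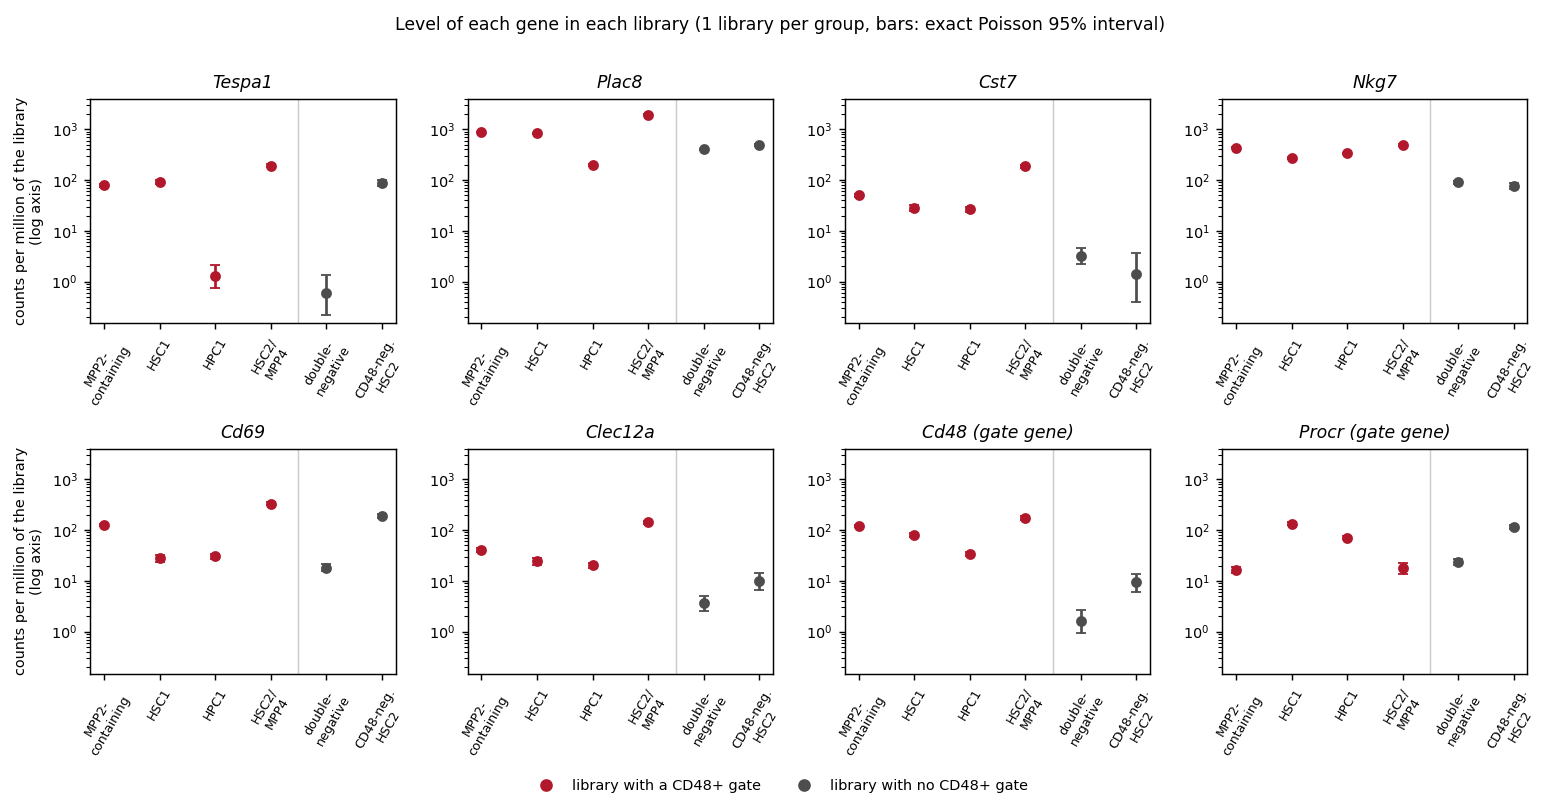
Pooled CPM (log axis) of the 6 genes and the gate genes Cd48 and Procr in each of the 6 libraries, red for libraries with a CD48+ gate and grey for those without; points are pooled levels of 1 library each and bars are exact Poisson 95% intervals, often shorter than the point. Cst7, Nkg7 and Clec12a have all red points above both grey ones, whereas Tespa1 is at 1.31 in HPC1 and 86.7 in CD48-negative HSC2.

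Nkg7, the granule membrane protein, divided the libraries by their CD48+ gate. It was at 435 CPM (interval 424 to 445) in MPP2-containing, 270.4 (258 to 283) in HSC1, 337 (326 to 347) in HPC1 and 483 (461 to 505) in HSC2/MPP4. The double-negative library gave 91.3 (85.5 to 97.5), and CD48-negative HSC2 gave 77.4 (67.4 to 88.4). All 4 libraries with a CD48+ gate stood above both without, and the only intervals that overlapped were those of double-negative and CD48-negative HSC2 cells. Cells at 100 CPM or more numbered 52 of 80 MPP2-containing, 32 of 84 HSC1, 33 of 82 HPC1 and 54 of 89 HSC2/MPP4 cells, against 16 of 76 double-negative and 20 of 86 CD48-negative HSC2 cells. In HSC2/MPP4 1 cell held 41% of all Nkg7 counts, and without it that library was at 314.

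Cst7, the cathepsin inhibitor, had the same division and was uneven between cells. It was at 49.9 CPM (46.4 to 53.6) in MPP2-containing, 28 (24.1 to 32.4) in HSC1, 26.7 (23.8 to 29.8) in HPC1 and 188 (175 to 202) in HSC2/MPP4. Double-negative cells gave 3.24 (2.21 to 4.57) and CD48-negative HSC2 cells 1.44 (0.392 to 3.69). HSC1 and HPC1 could not be ranked against each other within counting error, nor could the 2 libraries without a CD48+ gate. In CD48-negative HSC2 all 4 counts came from 1 cell of 86, a cell that also had counts of 3 T cell markers. By comparison, 46 of 89 HSC2/MPP4 cells had a count, 1 of which held 49.1% of that library's Cst7. The same cell held 41% of the Nkg7 counts and 39% of the Clec12a counts of HSC2/MPP4.

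Clec12a, the myeloid inhibitory receptor, had the same division with much of it in few cells. Its levels were 40.9 CPM (37.8 to 44.3) in MPP2-containing, 24.3 (20.7 to 28.5) in HSC1, 20.2 (17.7 to 23) in HPC1 and 142 (130.4 to 154) in HSC2/MPP4, against 3.64 (2.55 to 5.04) in double-negative cells and 10.1 (6.7 to 14.6) in CD48-negative HSC2. The intervals of HSC1 and HPC1 overlapped. The highest cell held 59.2% of the Clec12a counts of MPP2-containing, 51.3% of HSC1, 74.6% of HPC1 and 39% of HSC2/MPP4, and 47.2% and 82.1% of the double-negative and CD48-negative HSC2 counts. In MPP2-containing that cell was also the highest for Cst7 (29.2% of counts) and Nkg7 (11.9%). In HSC2/MPP4 too it was the highest cell for Cst7 and Nkg7, so the levels of these genes are not independent. Without the highest cell of each library the levels were 17, 12.3, 5.31 and 95.6 in the libraries with a CD48+ gate, against 1.95 and 1.84 in those without, which kept the order of the 2 kinds of library. Without the deepest 10% of cells Clec12a lost that order, and Cst7 and Nkg7 kept it.

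Cd69, the activation receptor, followed another line. It was at 127 CPM (121 to 133) in MPP2-containing, 27.9 (24 to 32.3) in HSC1, 30.5 (27.4 to 33.9) in HPC1 and 333 (315 to 352) in HSC2/MPP4. The double-negative library was at 18.3 (15.7 to 21.2), but CD48-negative HSC2 at 189 (173 to 206), the second highest of all. Both HSC2 libraries therefore stood above all 4 others, and HSC1 and HPC1 stood above the double-negative library by less than 2-fold, with overlapping intervals between them. For HSC1 that order turned with CPM averaged over cells, 22.2 against 29 in double-negative cells. The highest Cd69 value of any cell, 6828 CPM, was in a CD48-negative HSC2 cell.

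Tespa1, of T cell receptor signalling, was near 0 in 2 libraries and present in 4. It was at 78.8 CPM (74.4 to 83.5) in MPP2-containing, 92.5 (85.2 to 100.2) in HSC1, 1.31 (0.732 to 2.16) in HPC1 and 192 (178 to 206) in HSC2/MPP4, against 0.607 (0.223 to 1.32) in double-negative cells and 86.7 (76.1 to 98.4) in CD48-negative HSC2. The HPC1 library, which has a CD48+ gate, had 15 counts in 9 of 82 cells and the double-negative library 6 counts in 5 of 76 cells, and no cell of either reached 100 CPM. In HSC2/MPP4 58 of 89 cells did, and in CD48-negative HSC2 20 of 86. The interval of CD48-negative HSC2 overlapped those of MPP2-containing and HSC1, and that of HPC1 overlapped the double-negative one, so these neighbours in the order could not be ranked.

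Plac8, the cysteine-rich protein, had its lowest level in a library with a CD48+ gate. It was at 885 CPM (869.7 to 899.8) in MPP2-containing, 826 (804 to 848) in HSC1, 198 (190.0 to 206) in HPC1 and 1946 (1903 to 1990) in HSC2/MPP4. The libraries without a CD48+ gate were at 403 (390.4 to 416) for double-negative and 491 (465 to 518) for CD48-negative HSC2, above HPC1 and below the other 3. Nearly every cell had a count, from 70 of 86 CD48-negative HSC2 cells to 80 of 80 MPP2-containing cells, and the median over cells was 598, 183, 84.7 and 1301 CPM in MPP2-containing, HSC1, HPC1 and HSC2/MPP4, against 212 and 351.

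**Figure D2:**
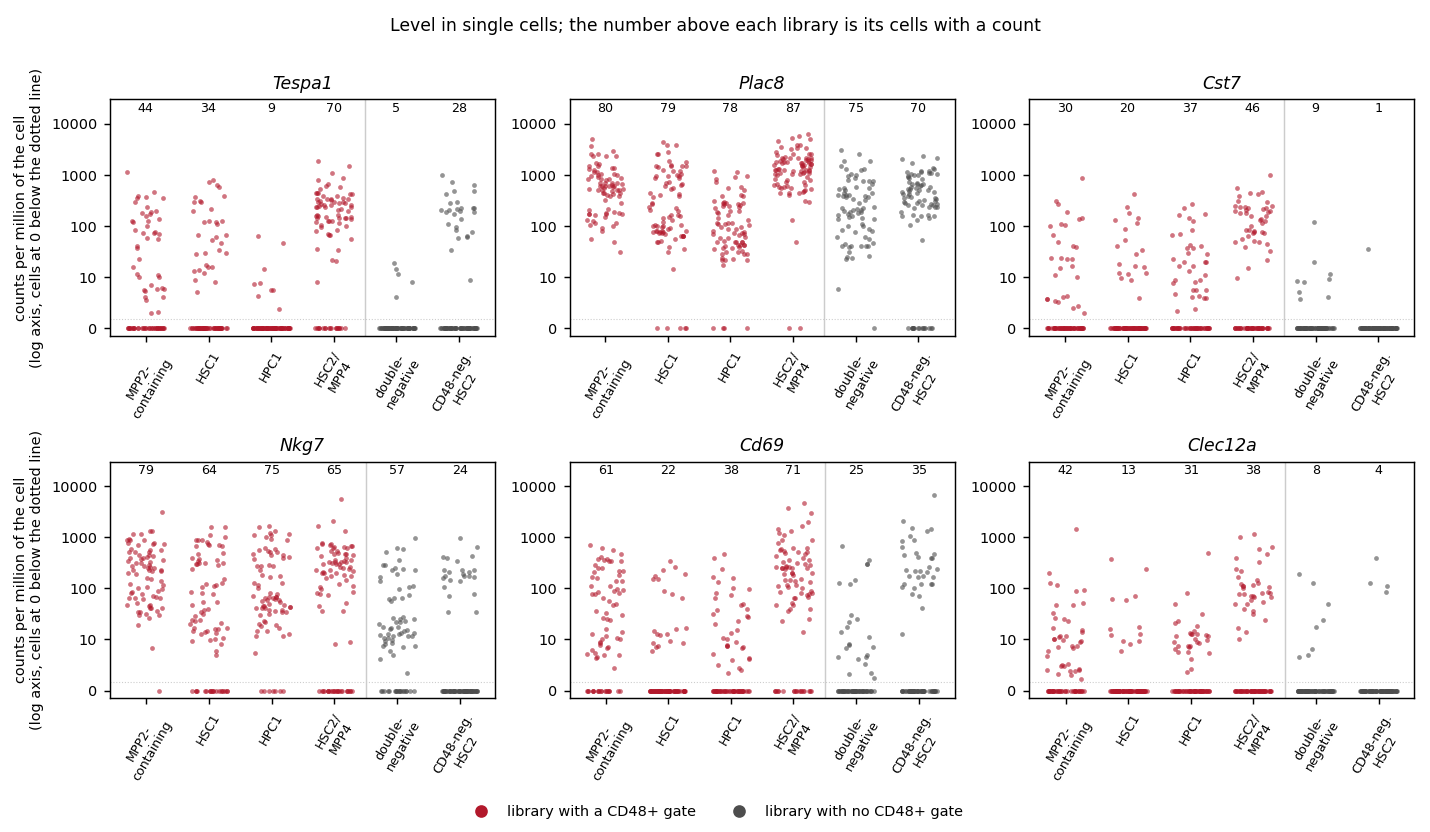
CPM of the single cell (log axis, cells at 0 below the dotted line) for every cell of each library, red for libraries with a CD48+ gate and grey for those without; the number above each column is its cells with a count. Cst7 has a count in 46 HSC2/MPP4 cells and in 1 CD48-negative HSC2 cell, and Plac8 has one in nearly all cells of every library.

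The libraries were then compared in pairs, as log2 ratios of CPM + 10; the added 10 CPM draws the ratios of weakly expressed genes towards 0. A gene was called 2-fold when the log2 ratio reached 1 in size, a rule of size and not a test. MPP2-containing, HSC1 and HPC1 were each set against the same double-negative library, so these 3 comparisons share it, and HSC2/MPP4 was set against CD48-negative HSC2. Since the 6 genes were chosen for this contrast, the calls that follow are printed beside the share of all 12003 recovered genes called in the same direction and nothing is read from the difference.

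In MPP2-containing over double-negative all 6 genes were 2-fold higher, where 2.01% of all genes were, and 0 were 2-fold lower, where 2.03% were. Tespa1 gave 3.07, Cd69 2.27, Cst7 2.18, Nkg7 2.13, Clec12a 1.90 and Plac8 1.12. All 6 did not stay past 2-fold in every setting. The count was 5 with CPM averaged over cells, without the deepest 10% of cells or with thinned counts, where Plac8 gave 0.87, 0.80 and 0.88. With 50 CPM added it was 4, where Cst7 gave 0.91 and Clec12a 0.76. The median of the 6 was 2.16, beside -0.01 over all genes. For Tespa1 the double-negative side was at 6 counts, so the ratio rests on the 10 CPM added, and it was 5.63 with 1 CPM added. Without the 5 cells of each library richest in neutrophil granule transcripts Clec12a gave 0.61 and Plac8 0.76.

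In HSC1 over double-negative 5 of the 6 were 2-fold higher, where 2.15% of all genes were, and 0 were 2-fold lower, where 1.46% were. Tespa1 gave 3.27, Cst7 1.52, Nkg7 1.47, Clec12a 1.33 and Plac8 1.02, and Cd69 gave 0.42. The direction of Cd69 was not stable, at -0.28 with CPM averaged over cells and -0.16 without the deepest 10% of cells. The median was 1.40, beside 0.00 over all genes. The count fell to 3 without the highest cell of each gene or with CPM averaged over cells and to 2 without the deepest 10% of cells, where Clec12a gave -0.24. Tespa1 and Nkg7 stayed above 1 in all 3 of these settings, and Cst7 gave 0.97 without the deepest cells. The tissue label differs between these libraries as well as the gates, and their parts cannot be told apart; the same holds for HPC1.

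In HPC1 over double-negative 3 of the 6 were 2-fold higher, where 2.01% of all genes were, and 0 were 2-fold lower, where 1.32% of all genes were. Nkg7 gave 1.77, Cst7 1.47 and Clec12a 1.15. Cd69 gave 0.52 and Tespa1 0.09. Plac8 gave -0.99, with 198 against 403 CPM. That it was not called 2-fold lower turned on the setting, since it gave -1.02 with 1 CPM added or without its highest cell, -1.18 with CPM averaged over cells and -1.13 with thinned counts. The median was 0.83, beside 0.00 over all genes. Without its highest cell Clec12a gave 0.36, and with 50 CPM added 1 of the 6 was called.

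In HSC2/MPP4 over CD48-negative HSC2 5 of the 6 were 2-fold higher, where 1.87% of all genes were, and 0 were 2-fold lower, where 3.31% were. Cst7 gave 4.11, with 738 counts against 4. Clec12a gave 2.92, Nkg7 2.50, Plac8 1.96 and Tespa1 1.06. Cd69 gave 0.79, with 333 against 189 CPM. The median of the 6 was 2.23, beside -0.04 over all genes. Both libraries were deposited apart from the other 4. In the 4 comparisons the counts of 6, 5, 3 and 5 became 1, 0, 0 and 2 when log values were averaged over cells in place of pooling counts. That setting also adds a larger constant than 10 CPM, so the part of averaging alone cannot be read from it.

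**Figure D3:**
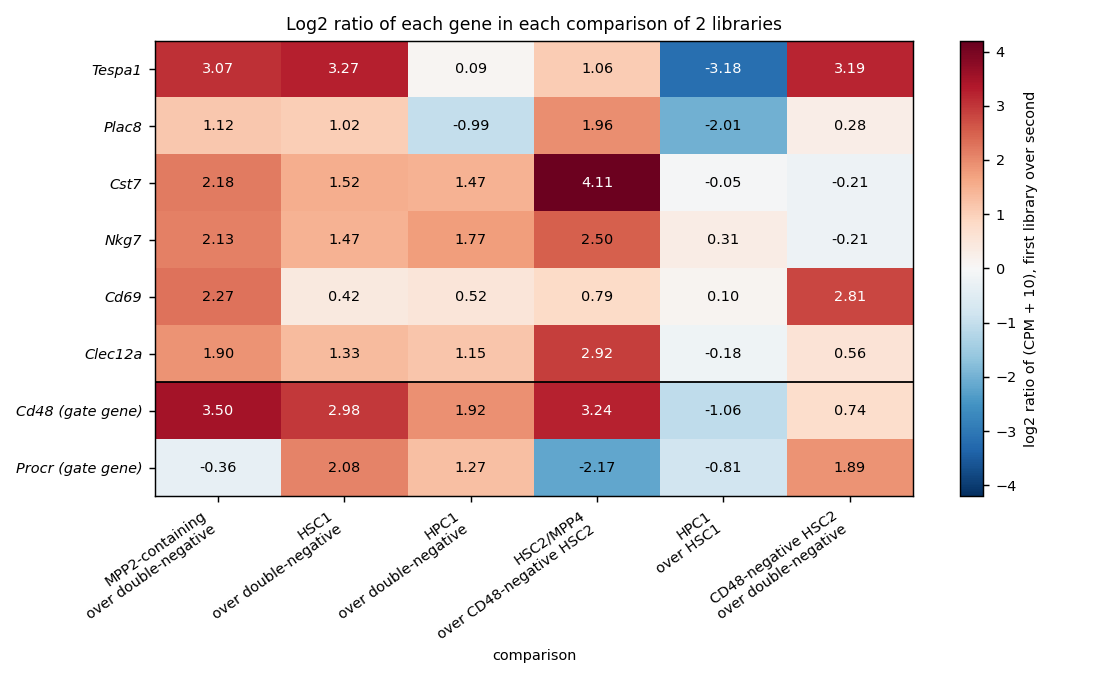
Log2 ratio of (CPM + 10) of the 6 genes and of the gate genes Cd48 and Procr in the 6 comparisons of 2 libraries, first library over second, red for higher and blue for lower in the first. Cst7 and Nkg7 are red in the 4 comparisons of a library with a CD48+ gate against one without and near 0 in the other 2, while Tespa1 ranges from -3.18 to 3.27.

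Between 2 libraries of the same kind, the 6 genes split. In HPC1 over HSC1, both of which have a CD48+ and a CD201+CD48- gate, 0 of the 6 were 2-fold higher, where 1.87% of all genes were, and 2 were 2-fold lower, where 1.99% were. These were Tespa1 (-3.18) and Plac8 (-2.01), and Cd48 itself was lower too (-1.06). Cst7 gave -0.05, Nkg7 0.31, Cd69 0.10 and Clec12a -0.18. In CD48-negative HSC2 over double-negative, neither of which had a CD48+ gate, 2 of the 6 were 2-fold higher, where 4.31% of all genes were, and 0 were 2-fold lower, where 2.72% were. These were Tespa1 (3.19) and Cd69 (2.81). Plac8 gave 0.28, Cst7 and Nkg7 both -0.21 and Clec12a 0.56.

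Shares of cells with a count were taken after each cell was thinned to 10000 counts, which left out 0, 4, 1 and 8 shallower cells of MPP2-containing, HSC1, HPC1 and HSC2/MPP4, and 1 and 20 of double-negative and CD48-negative HSC2. Intervals are exact binomial (Clopper-Pearson) at 95%. Nkg7 was counted in 75% (64.1 to 84) of MPP2-containing, 46.2% (35 to 57.8) of HSC1, 56.8% (45.3 to 67.8) of HPC1 and 64.2% (52.8 to 74.6) of HSC2/MPP4 cells, against 28% (18.2 to 39.6) of double-negative and 25.8% (15.8 to 38) of CD48-negative HSC2 cells. The order of the 2 kinds of library thus held per cell, though the HSC1 interval overlapped both libraries without a CD48+ gate. Cst7 was counted in 40.7% (29.9 to 52.2) of HSC2/MPP4 cells and in 7.5%, 10.0% and 8.64% of MPP2-containing, HSC1 and HPC1 cells, against 0 of 75 double-negative and 0 of 66 CD48-negative HSC2 cells. At this thinned depth the exact intervals there reach 4.8% and 5.44%, and a limit of 3 cells is 4% and 4.55%. With all counts kept, Cst7 was found in 9 of 76 double-negative cells and 1 of 86 CD48-negative HSC2 cells, so the 0 holds for thinned cells only.

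Clec12a reached 34.6% (24.3 to 46) of HSC2/MPP4 cells, 15% (8 to 24.7) of MPP2-containing and 9.88% (4.36 to 18.5) of HPC1 cells. HSC1 had 2.5% (0.304 to 8.74), against 2.67% (0.325 to 9.3) of double-negative and 3.03% (0.369 to 10.5) for CD48-negative HSC2, so the higher pooled level of HSC1 was not seen as a higher share of cells. Tespa1 was counted in 23.8%, 17.5% and 65.4% of MPP2-containing, HSC1 and HSC2/MPP4 cells and in 0 of 81 HPC1 cells, against 1.33% of double-negative and 27.3% of CD48-negative HSC2 cells. For HPC1 the exact interval reaches 4.45% at the thinned depth, and the limit of 3 cells is 3.7%. Before thinning, 9 of 82 HPC1 cells had a Tespa1 count. Cd69 was counted in 66.7% of HSC2/MPP4, 40.0% of MPP2-containing, 12.5% of HSC1 and 12.3% of HPC1 cells, against 10.7% of double-negative and 36.4% of CD48-negative HSC2 cells. Plac8 ranged from 64.2% of HPC1 to 96.3% of HSC2/MPP4 cells.

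The number of the 6 genes counted in the same thinned cell differed between libraries. Of 80 MPP2-containing cells 2, 11 and 27 had 0, 1 and 2 of them, and the rest at least 3. At least 3 were found in 85.2% of HSC2/MPP4, 23.8% of HSC1 and 16% of HPC1 cells, against 2.67% of double-negative and 16.7% of CD48-negative HSC2 cells. All 6 were present in 4 HSC2/MPP4 cells and 1 HSC1 cell and in 0 cells of the other 4 libraries. The 6 genes were chosen for differences between these libraries, so these numbers describe the choice too.

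Within a library, cells can be divided by a Cd48 count of their own, a measure of the transcript and not of the sorted protein. After thinning, 31 of 80 MPP2-containing, 23 of 80 HSC1, 11 of 81 HPC1 and 45 of 81 HSC2/MPP4 cells had such a count, which allowed the division in these 4 libraries. HSC2/MPP4 has no gate labelled CD48-, and 63 of its 89 cells had a Cd48 count before thinning. Its cells without a thinned Cd48 count therefore cannot be taken as cells without CD48. Nkg7 was counted in more of the cells with Cd48 in all 4. The shares in cells with and without a Cd48 count were 83.9% and 69.4% in MPP2-containing, 73.9% and 35.1% in HSC1, 72.7% and 54.3% in HPC1, and 66.7% and 61.1% in HSC2/MPP4. In HSC1 the exact binomial intervals, 51.6 to 89.8% and 22.9 to 48.9%, did not overlap, and 0.147% of the 6116 genes counted in at least 10 of those cells differed by as many percentage points or more. The intervals take cells as units, and cells of a library are not replicates. The levels of these same cells entered the choice of the genes, so the division is not independent of that choice and is a description. In the other 3 libraries the intervals of Nkg7 overlapped, and 11.3% of genes in MPP2-containing, 12.4% in HPC1 and 36.2% in HSC2/MPP4 differed by as much as Nkg7 or more.

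Cd69 was likewise counted in more of the cells with Cd48 in all 4 libraries, 26.1% against 7.02% in HSC1, 36.4% against 8.57% in HPC1, 41.9% against 38.8% in MPP2-containing and 71.1% against 61.1% in HSC2/MPP4. Of the 3 genes counted in at least 10 thinned cells of each library, Nkg7, Cd69 and Plac8, both the share and the pooled level of Nkg7 and Cd69 were higher with Cd48 in all 4 libraries, where 13.4% of 5055 genes had a higher share and 8.09% a higher level in all 4. Cells of 1 library are not replicates, and the intervals of Cd69 overlapped in all 4 libraries. Median counts per cell before thinning were 171591 with and 131588 without Cd48 in MPP2-containing, 62760 and 70105 in HSC1, 138265 and 112103 in HPC1, and 39188 and 36564 in HSC2/MPP4. The part of depth was not tested beyond the thinning.

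Plac8 had more counts per 10000 in the cells with Cd48 in 3 libraries, 10.7 against 6.86 in MPP2-containing, 10.7 against 5.16 in HSC1 and 3.27 against 1.8 in HPC1, and 16.8 against 17.3 in HSC2/MPP4. Clec12a in MPP2-containing had 24 counts in 31 cells with Cd48 and 4 counts in 49 cells without. In the other 3 libraries it did not stand clearly apart, with 0 counts with Cd48 and 5 without in HSC1, shares of 9.09% and 10.0% in HPC1, and 0.867 and 0.944 counts per 10000 in HSC2/MPP4. Tespa1 had 1.1 against 0.571 counts per 10000 in MPP2-containing and 0.826 against 0.351 in HSC1, with intervals of the shares overlapping in both. In HSC2/MPP4 the shares of Tespa1, Plac8, Cst7 and Clec12a differed by at most 2.22 percentage points between the cells with and without a Cd48 count. No gate of that library is labelled CD48-, so this division cannot show a difference between CD48+ and CD48- cells.

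**Figure D4:**
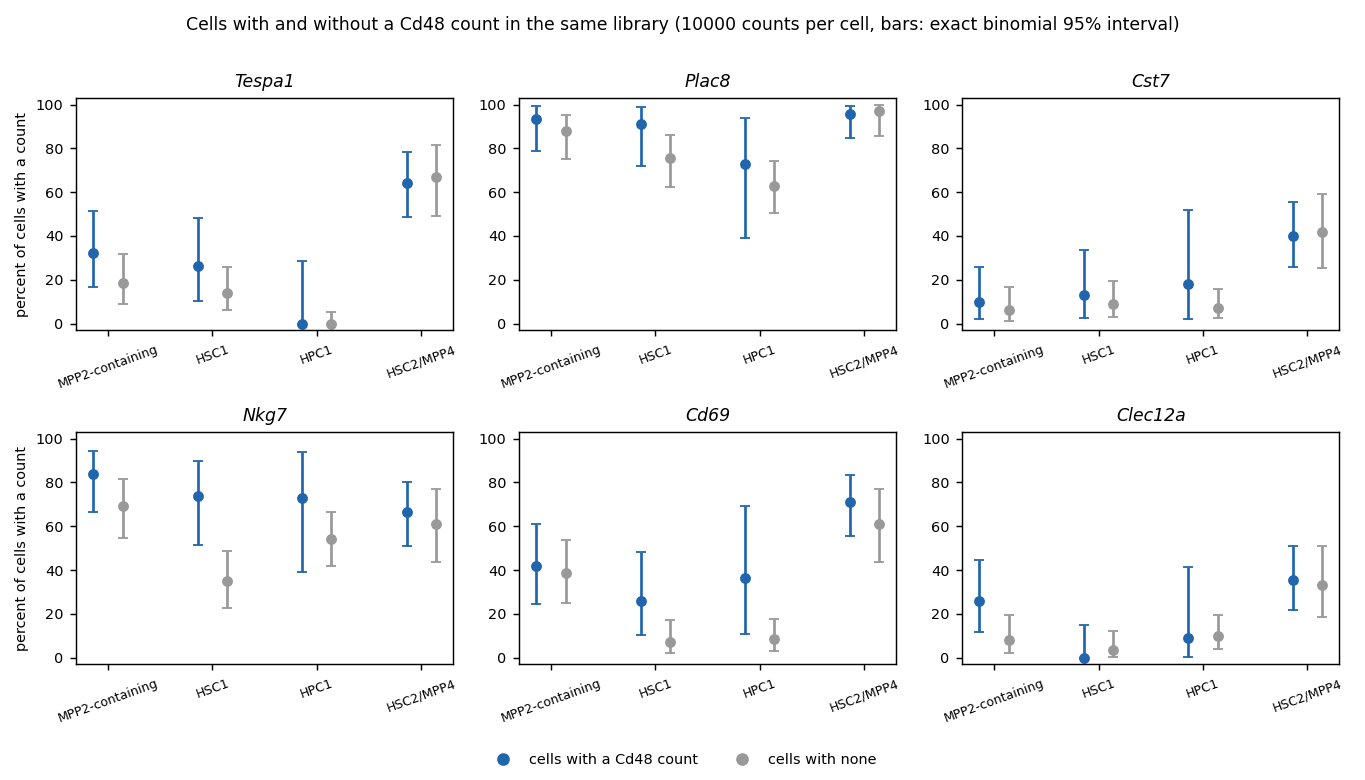
Percent of cells with a count of each gene among cells with (blue) and without (grey) a Cd48 count in the same library, after thinning to 10000 counts per cell; bars are exact binomial 95% intervals. The blue and grey intervals of Nkg7 are apart in HSC1 (73.9% and 35.1%), and in HSC2/MPP4 the intervals of all 6 genes overlap.

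Rank correlations between the genes over the thinned cells of a library were mostly weak, and are given where both genes had a count in at least 10 cells. Plac8 and Nkg7 had a Spearman correlation above 0 in all 6 libraries (0.10 to 0.60, median 0.24), and Plac8 and Tespa1 in 4 of 4 (0.06 to 0.40). Nkg7 and Cd69 were above 0 in 1 of 5 (median -0.06). With Procr, Plac8 ranged from -0.51 to 0.27 and Nkg7 from -0.47 to 0.01. The 0.60 of Plac8 with Nkg7 and the lowest values of both with Procr were in HSC1, where Tespa1 with Nkg7 gave 0.45. The cells of a library share its depth and preparation, and correlations of this size in sparse counts describe these cells only.

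Part of the level of Cst7 and Clec12a lay in cells rich in the transcripts of neutrophil granule enzymes. The 5 cells of each library with the highest share of Mpo, Elane and Ctsg, a division made after the values were seen, held 83.4% of the Clec12a counts of MPP2-containing and 75.9% of those of HSC2/MPP4, although they held 8.85% and 15.2% of all counts. They held 55.2% and 59.6% of the Cst7 counts and 22.1% and 54.1% of the Nkg7 counts of these libraries. In HPC1 the same kind of cells held at most 0.862% of any of the 3 genes, beside only 1.32% of all counts. In HSC1 they held 10.4% of the Cst7, 12.1% of the Nkg7 and 3.16% of the Clec12a counts, beside 5.02% of all counts. Of the Tespa1 counts such cells held 18.4% in MPP2-containing and 4.12% in HSC2/MPP4, and of the Cd69 counts 10.8% and 6.96%. In double-negative cells they held 78.1% of the Cst7, 63.9% of the Clec12a and 16.6% of the Cd69 counts, beside 7.03% of all counts.

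Without those cells Clec12a stood at 7.45, 24.8, 20.3 and 40.3 CPM in MPP2-containing, HSC1, HPC1 and HSC2/MPP4, against 1.41 in double-negative cells and 9.37 in CD48-negative HSC2, so its libraries with a CD48+ gate no longer all stood above both without. The order still held for Cst7, at 24.5, 26.4, 26.9 and 89.5, against 0.762 and 1.5. It also held for Nkg7, at 372, 250.3, 340.1 and 261, against 92.4 and 75.7. The share of all genes with that order was 6.07% with all cells and 5.79% without these.

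**Figure D5:**
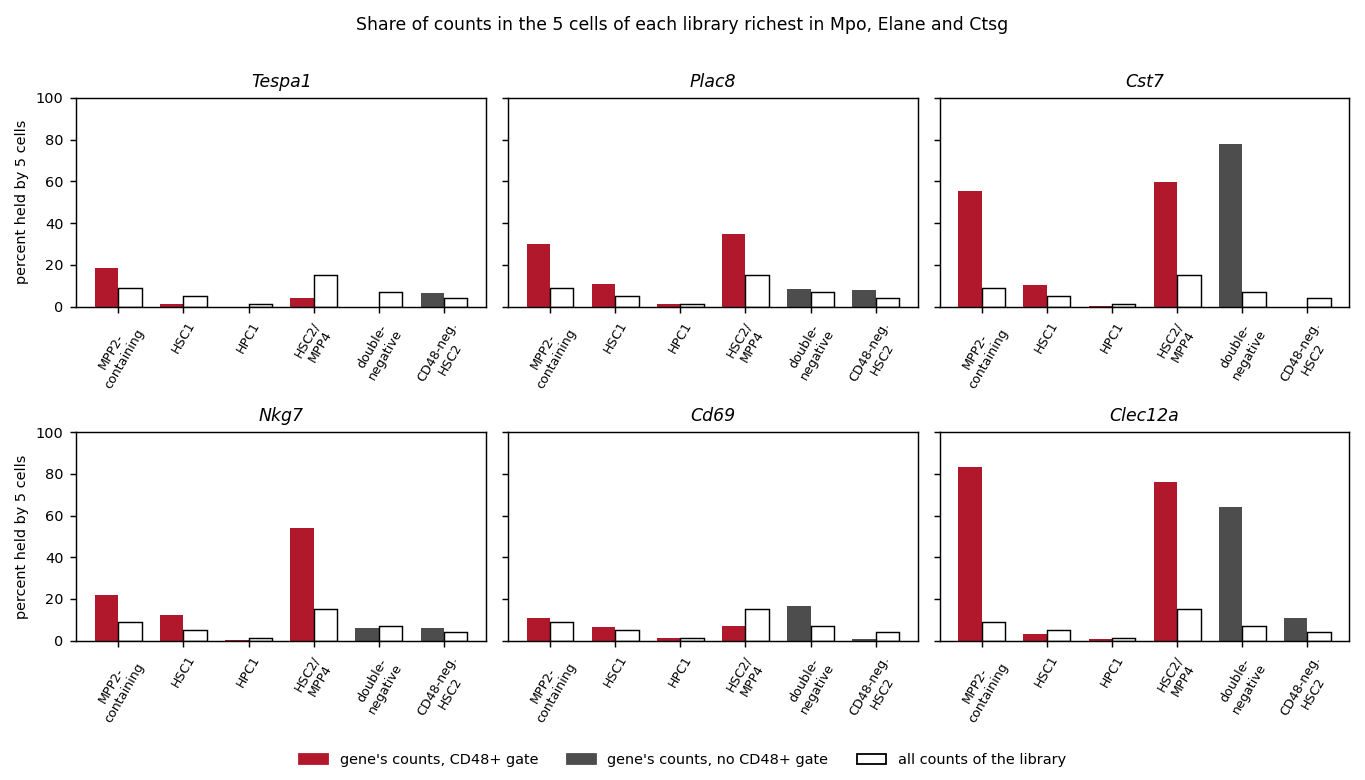
Percent of a gene's counts (red, libraries with a CD48+ gate, or grey, without) and of all counts (open bars) held by the 5 cells of each library richest in Mpo, Elane and Ctsg. Clec12a has 83.4% of its MPP2-containing counts in these cells, and Cd69 6.96% of its HSC2/MPP4 counts.

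The genes most like each of the 6 over the 6 libraries were found by Pearson correlation of log2(CPM + 10) among the 244 genes that reached 10 CPM in 1 library and had a log2 range of at least 2, a description over 6 points that share their libraries. Cst7 was followed by Ap3s1 (0.97), Ms4a3 (0.95), Elane (0.94), Mpo (0.93) and Tpm4 (0.93), and Clec12a by Ap3s1 (0.99), Mpo (0.96), Elane (0.94), Ccl9 (0.93) and Cd48 (0.91). Nkg7 was followed by Pclaf (0.96), Cd48 (0.92), Ms4a3 (0.91), Lrr1 (0.90) and Hist1h2an (0.89). Pclaf, a partner of the DNA replication clamp, was at 360.2, 164, 227 and 401 CPM in MPP2-containing, HSC1, HPC1 and HSC2/MPP4, against 58.8 in double-negative cells and 88.9 in CD48-negative HSC2. The genes most like Nkg7 over the cells within a library were Mcm5, part of the replicative helicase, with a mean Spearman correlation of 0.32, and Serpinb1a and Banf1, both 0.27.

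The other 3 had other company. Cd69 was followed over the libraries by Cdkn1a (0.96), Hk3 (0.95), Ccl3 (0.94), Fos (0.94) and Zfp36 (0.93), of which Fos and Zfp36 are immediate early genes. Fos was at 1052, 344, 249 and 1591 CPM in MPP2-containing, HSC1, HPC1 and HSC2/MPP4, against 311 in double-negative cells and 2212 in CD48-negative HSC2, and within libraries it was again among the 3 genes closest to Cd69 (mean Spearman 0.21). Tespa1 was followed by Lgals1 (0.96), H2-Ob (0.95), Cd53 (0.95), Wfdc17 (0.94) and Cd52 (0.91), and within libraries by Cd34 (0.34). Among the genes closest to Plac8 were Bex6, Lgals1 (0.94), H2afy (0.88) and Ighm (0.86). The correlation with Cd48 itself was 0.92 for Cst7, 0.92 for Nkg7 and 0.91 for Clec12a, but 0.70 for Plac8, 0.67 for Tespa1 and 0.47 for Cd69. The genes were chosen for differences between libraries with and without CD48+ cells, a division that Cd48 follows too. These correlations therefore restate the choice and the order of levels given above, and were not tested.

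Other genes of the same pathways were read from lists that leave out the 6. Of the cytotoxic granule and natural killer list, 9 of 22 genes were recovered, and 2, 1, 1 and 2 of the 9 were 2-fold higher in MPP2-containing, HSC1 and HPC1 over double-negative and in HSC2/MPP4 over CD48-negative HSC2, with 0, 0, 1 and 0 lower. Of all recovered genes 2.01%, 2.15%, 2.01% and 1.87% were 2-fold higher in these 4 comparisons and 2.03%, 1.46%, 1.32% and 3.31% lower. The list's medians were 0.00, 0.19, 0.13 and 0.19, and those of all genes lay between -0.04 and 0.00. Tyrobp, an adaptor of activating receptors, was the member 2-fold higher in all 4 (1.19, 1.36, 1.29 and 1.90). The T cell receptor signalling list (22 of 27 recovered), to which the role of Tespa1 belongs, had 0, 1, 1 and 1 members 2-fold higher and 0, 0, 1 and 1 lower, with medians of -0.29, -0.04, -0.07 and -0.15. Of 15 cathepsins and inhibitors 1, 0, 0 and 1 were 2-fold higher and 0, 0, 0 and 2 lower, with medians of -0.06, 0.03, -0.06 and -0.12; the higher one was Ctsg (4.57 and 6.61), a neutrophil granule protease. Ctsc, which encodes cathepsin C, the best known target of cystatin F, gave 0.08, -0.05, -0.57 and -0.12.

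Other C-type lectins (14 of 21 recovered) had 1, 0, 0 and 0 members higher and 1, 0, 0 and 0 lower in the same 4 comparisons, with medians of 0.09, 0.14, 0.05 and 0.20. S1pr1, the egress receptor that CD69 binds, gave -0.78, -0.56, -1.17 and -0.89. In CD48-negative HSC2 over double-negative S1pr1 gave -0.01, where Cd69 gave 2.81. These are transcripts and not the surface proteins, and a relation between them was not tested. The phosphatases and kinases that inhibitory receptors such as Clec12a recruit (8 of 8) had 0 members 2-fold higher or lower in any comparison. Immediate early genes (13 of 14 recovered), set beside Cd69, had 12 members 2-fold higher and 0 lower in CD48-negative HSC2 over double-negative, where 4.31% of all genes were higher. Their median there was 1.57, and Cd69 gave 2.81. In HSC2/MPP4 over CD48-negative HSC2 they went the other way from Cd69, with 0 higher, 1 lower and a median of -0.68, where Cd69 gave 0.79. Granulocyte-monocyte progenitor genes (18 of 18) had 4, 2, 4 and 9 higher and 1, 0, 0 and 1 lower in the 4 comparisons with a CD48+ gate on 1 side, with medians of 0.43, 0.40, 0.49 and 1.09, and Ctsg is on this list too. Of all recovered genes 2.01%, 2.15%, 2.01% and 1.87% were 2-fold higher in these 4 and 2.03%, 1.46%, 1.32% and 3.31% lower.

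Markers of other cell types were summed in the same libraries. The 9 recovered T cell markers of 15 summed to 28.2, 26.8, 8.19 and 84.6 CPM in MPP2-containing, HSC1, HPC1 and HSC2/MPP4, against 28.6 in double-negative cells and 29.9 in CD48-negative HSC2. Cd3d had 0 counts in HSC1 and HPC1 and was at most 5.76 CPM elsewhere, and Lck, at 56.8 CPM, made up most of the HSC2/MPP4 sum. Of 12 natural killer markers 3 were recovered, and they summed to 33, 7.09, 2.88 and 15 CPM, against 5.16 and 7.56, with Klrd1 at 0 in all libraries except HSC2/MPP4 (3.82). Of the 65 HSC2/MPP4 cells with an Nkg7 count, 55 had no count of these 3 and 23 none of the T cell markers. Mature neutrophil markers (9 of 9) summed to 2717, 309.6, 4374 and 5203 CPM, against 785 and 6585. The markers of this list did not all go together. S100a8 was at 1122 CPM in MPP2-containing and 2823 in CD48-negative HSC2. Mmp8, Mmp9 and Retnlg were at 9.32, 12.5 and 8.52 CPM in MPP2-containing, against 0, 1.08 and 0 in CD48-negative HSC2. Monocyte, macrophage and dendritic cell markers (9 of 11) summed to 94.6, 66.9, 92 and 416 CPM, against 51.4 and 95, B cell markers (5 of 9) to 60.4 to 78.1 over the 6 libraries, mast cell and basophil markers (4 of 7) to at most 36.8 and eosinophil markers (2 of 5) to at most 11.1. The part of other cell types in the levels of the 6 genes was not tested.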

How the data were processed

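Single cells were sequenced with a modified Smart-seq2 protocol that enriches the 3′ ends of mRNA, per the labels' protocols, and the submitters' processing notes name TopHat, HTSeq and mm10 without versions. The values the authors deposited are scores: each gene is centred and scaled to an SD of 1 over 497 cells, with covariates regressed out and values capped at 10 (0.0762% of values). Counts were recovered by undoing these steps with an intercept and 2 covariates and a scale factor of 10000. Of 13278 genes 12003 were recovered, including all 6 studied here, and 100% of 1996413 values up to 50 came out whole within 0.01. In a simulation of the comparison HSC2/MPP4 over CD48-negative HSC2, the recovery returned 11980 of 12003 genes. Recovered genes made up 51.2% to 80.5% of a cell's counts, and CPM uses the full total.

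Each group is 1 library of 76 to 89 cells, so levels, ratios and shares are descriptions. The CPM of 3 counts was 0.2 to 1.08. The members and lists were chosen with earlier results of these data known. Named genes are the 6, Cd48 and Procr, members of the lists, and the 5 genes most like each of the 6 over the libraries and 3 over cells; for the last, a gene had to qualify in every library where the member did, a condition added later. A gene that this rule names, and the 2 lists that hold it, are not reported here. Promoter windows and motifs were also chosen later. Alternatives changed the denominator, the CPM added (1 or 50), the averaging, the thinning depth and the cells left out. Python 3.11.15, numpy 2.4.6, scipy 1.17.1 and pandas 2.3.3 were used.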

Additional observations from a re-analysis of the deposited data

Results flagged for a closer look

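Plac8 went opposite ways in a pair of comparisons of a library with a CD48+ gate over one without. It was higher in HSC2/MPP4 than in CD48-negative HSC2 (log2 ratio 1.96, 1946 against 491 CPM) and lower in HPC1 than in double-negative cells (-0.99, 198 against 403 CPM). The log2 ratios differ by 2.95. With 1 library on each side this difference was not tested.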

How the results depend on the processing

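No paired analysis was possible because each group is 1 library and no result comes from a test. The mean of log values over cells changed the averaging and also added a larger constant than the 10 CPM of the pooled ratios. The parts of these changes cannot be told apart. The number of the 6 genes at least 2-fold higher fell most in that setting. With the mean of log values over cells it was 1 in MPP2-containing, 0 in HSC1 and 0 in HPC1 over double-negative, 2 in HSC2/MPP4 over CD48-negative HSC2 and 0 in CD48-negative HSC2 over double-negative, against 6, 5, 3, 5 and 2 with pooled counts. In HSC1 over double-negative it was 3 with the mean of per-cell CPM, 3 without the highest cell of each gene, 2 without the deepest 10% of cells, 2 with 50 CPM added and 3 with thinned counts. With 50 CPM added it was 1 in HPC1 over double-negative. Clec12a in HSC1 over double-negative reversed to -0.24 without the deepest 10% of cells, from a log2 ratio of 1.33; the cause was not tested. Without the 5 cells richest in Mpo, Elane and Ctsg, an alternative chosen after seeing the data, Plac8 and Clec12a were at 0.76 and 0.61 in MPP2-containing over double-negative and the count there was 4. Clec12a in HSC1 over double-negative, at -0.24 without the deepest 10% of cells, was the only ratio of at least 1 in size to change sign among the 360 alternative values. Smaller ratios changed sign in 21 of them, as Cd69 in HSC1 over double-negative (-0.28 with the mean of per-cell CPM, from 0.42), Tespa1 in HPC1 over double-negative (-0.18 with thinned counts, from 0.09) and Clec12a in HPC1 over HSC1 (0.54 with thinned counts, from -0.18). Low depth limits CD48-negative HSC2 most, where 20 of 86 cells had under 10000 counts.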
